A study of Mus musculus with 12 samples.

Results

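HiChIP with an antibody against FGFR1 was set against HiChIP with an antibody against CTCF in mouse neuronal committed cells (NCC). The comparison takes in 4 of the 12 samples of the series, 2 per antibody, which were deposited as 1 merged table of interactions per antibody. Every anchor on the 19 autosomes entered, 223499 of the FGFR1 table and 165818 of the CTCF table. An anchor was called shared when it overlapped an anchor of the other table by at least 1 bp, and bins of 10 kb and 100 kb were asked which antibody they favoured once both tables had been scaled to the same total. The NCC were derived from E14Tg2A embryonic stem cells (ESC) by 48 h in 1 μM retinoic acid without LIF, and the ESC themselves were kept in 100 U/mL LIF. Both groups of NCC share the line, the treatment, the formaldehyde fixation and the library chemistry, and differ in the antibody. HiChIP with the same antibodies in ESC and Hi-C in NCC, which uses no antibody, were taken as references. Each culture was used whole and from 1 line, a library without a specific antibody was not analysed here, and contact libraries hold no expression, so the label NCC was not checked against cell markers.

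CTCF is a zinc finger protein that binds a long DNA motif and halts the cohesin ring as it extrudes chromatin loops. Pairs of CTCF motifs that point towards each other are the usual base of a loop. FGFR1 is a receptor tyrosine kinase for fibroblast growth factors, and a form of it that enters the nucleus (nFGFR1) binds chromatin together with the coactivator CBP in neural differentiation. In HiChIP, DNA ends that lie close together in the fixed nucleus are ligated, the chromatin is then precipitated with the antibody, and sequencing gives read pairs whose ends fall in anchors. A read pair counts once for an interaction and gives 2 ends.

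The FGFR1 library held 3177422 autosomal read pairs in 2367305 interactions, and the CTCF library held 1049415 read pairs in 836108 interactions. FGFR1 counts were therefore multiplied by 0.33 wherever scaled values or ratios are given. A single read pair supported 85.1% of the FGFR1 and 86.4% of the CTCF interactions. The median FGFR1 anchor measured 2413 bp and held 24 ends, and the median CTCF anchor measured 2248 bp and held 10 ends. Together the FGFR1 anchors covered 670.6 mb (27.2% of the autosomes) and the CTCF anchors 441.0 mb (17.9%). Because both replicates were merged in each table, no error between replicates could be given and no test between the antibodies was made. The 95% intervals below cover counting error only, and read pairs without molecular identifiers are not fully independent molecules. Each table lists read pairs only between anchors called in its own library. A count of 0 can therefore mean that no anchor was called there, which the intervals do not cover. "Favoured" and "tested" below refer to a ratio and a counting interval in 1 pooled library per antibody.

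The sequences on which much of the comparison turns are matches to the CTCF consensus, of which 12245 lay on the autosomes of GRCm38 (mm10), counted on both strands. The matches below are those of bins and loci named for their ratio between the antibodies, shown because the same motif stood at loci of both directions. Each is printed 5′ to 3′ on the strand of the motif with 24 flanking bases on both sides, and the capitals mark the consensus. The first group came from loci where CTCF read pairs prevailed. The gene Rab11fip3 had 3 matches inside its introns within 1 locus. The Nup50 match was intronic, and the matches near Ran and Top1mt were intergenic. The second group came from loci where FGFR1 prevailed although a consensus match was present. Those of Gm20388, Skap1 and Snx9 were intronic and those near Btla and Wnt5b were intergenic.
Rab11fip3, chr17:26009598-26009657, plus strand: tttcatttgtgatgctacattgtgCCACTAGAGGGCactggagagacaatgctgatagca
Rab11fip3, chr17:26011909-26011968, plus strand: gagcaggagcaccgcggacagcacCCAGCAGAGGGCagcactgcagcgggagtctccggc
Rab11fip3, chr17:26012314-26012373, minus strand: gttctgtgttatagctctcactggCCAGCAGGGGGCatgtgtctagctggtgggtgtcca
Nup50, chr15:84925099-84925158, minus strand: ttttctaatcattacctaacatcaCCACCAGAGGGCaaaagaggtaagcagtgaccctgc
Ran, chr5:129026272-129026331, minus strand: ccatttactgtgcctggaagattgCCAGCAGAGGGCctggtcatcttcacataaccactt
Top1mt, chr15:75679437-75679496, minus strand: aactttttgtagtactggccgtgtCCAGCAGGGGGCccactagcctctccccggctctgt
Gm20388, chr8:121694649-121694708, plus strand: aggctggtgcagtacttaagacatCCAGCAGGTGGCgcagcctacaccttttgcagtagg
Btla, chr16:45196992-45197051, plus strand: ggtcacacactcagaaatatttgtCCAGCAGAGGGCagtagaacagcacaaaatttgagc
Skap1, chr11:96600096-96600155, minus strand: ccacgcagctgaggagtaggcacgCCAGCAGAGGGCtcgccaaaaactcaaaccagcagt
Snx9, chr17:5890565-5890624, minus strand: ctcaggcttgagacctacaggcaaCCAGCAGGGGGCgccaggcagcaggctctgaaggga
Wnt5b, chr6:119554622-119554681, minus strand: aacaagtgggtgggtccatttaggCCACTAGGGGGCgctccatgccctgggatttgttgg
The 12 bases in capitals were identical in loci of opposite preference: the variant of the second Rab11fip3 match also stood at Btla and Skap1, where FGFR1 prevailed.

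The first question was how far the places joined by FGFR1 are also places joined by CTCF. Of the FGFR1 anchors, 110154 overlapped a CTCF anchor, which is 49.3% (interval 49.08 to 49.49%), and they held 59.2% of the FGFR1 ends. Of the CTCF anchors, 112217 overlapped an FGFR1 anchor, which is 67.7% (67.45 to 67.9%), and they held 75.2% of the CTCF ends. The length covered by both tables was 260.4 mb, 38.8% of the FGFR1 and 59.0% of the CTCF anchor length. The larger share on the CTCF side goes with the larger number and length of the FGFR1 anchors. Both ends of a read pair lay in shared anchors for 60.2% of CTCF and 39.7% of FGFR1 read pairs, and neither end for 9.91% and 21.2%.

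Sharing of anchors with the reference tables was of similar size. FGFR1 anchors of NCC overlapped FGFR1 anchors of ESC in 59.2% of cases, CTCF anchors of ESC in 48.7% and Hi-C anchors of NCC in 73.7%. CTCF anchors of NCC overlapped CTCF anchors of ESC in 52.3%, FGFR1 anchors of ESC in 62.6% and Hi-C anchors of NCC in 76.7%. These shares followed how much of the autosomes the other table covers, from 17.6% for CTCF in ESC to 37.3% for Hi-C. The same comparison within ESC gave 51.7% of FGFR1 anchors and 62.8% of CTCF anchors shared.

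The read pairs of both antibodies followed each other over long stretches of chromosome. Across 2398 bins of 1 mb the Spearman correlation of FGFR1 with CTCF was 0.924, across 22120 bins of 100 kb it was 0.708, and across 62801 bins of 10 kb it was 0.351. These describe bins of the same 2 libraries, which share base composition and depth along the genome. At 10 kb FGFR1 in NCC correlated at 0.377 with FGFR1 in ESC and at 0.374 with Hi-C, and CTCF in NCC at 0.399 with CTCF in ESC and at 0.426 with Hi-C. At this bin size each antibody thus followed the other no more closely than it followed itself in ESC. The margins were small, since CTCF in NCC correlated at 0.394 with FGFR1 in ESC and FGFR1 in NCC at 0.343 with CTCF in ESC. At 1 mb the order was turned. FGFR1 in NCC correlated at 0.924 with CTCF in NCC and at 0.913 with FGFR1 in ESC, and CTCF in NCC at 0.929 with FGFR1 and 0.923 with CTCF in ESC.

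Strong and long anchors were shared most. In the decile of FGFR1 anchors with the fewest ends 26.1% were shared, and in the decile with the most ends 80.9%. For CTCF the same deciles gave 50.7% and 89.4%. By length, sharing went from 36.6% of FGFR1 anchors under 2 kb to 75.5% of those of 5 kb or more, and from 58.6% to 90.2% for CTCF. Shared FGFR1 anchors held a median of 29 ends against 20 in unshared ones, but they were also longer, with medians of 2790 and 2167 bp. Per kb of anchor the gap was smaller, at 9.9 ends over 380.3 mb of shared and 8.92 ends over 290.3 mb of unshared FGFR1 anchors. CTCF anchors gave 4.94 ends per kb over 319.4 mb shared and 4.29 over 121.6 mb unshared, with medians of 12 and 8 ends.

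The shared anchors held the known regulatory landmarks more often than the unshared ones, though in a minority of anchors. A CTCF consensus match lay in 3.23% (3.13 to 3.339%) of shared FGFR1 anchors and in 1.01% (0.951 to 1.067%) of those that only FGFR1 had. On the CTCF side it lay in 3.14% (3.037 to 3.241%) of shared and 1.96% (1.847 to 2.082%) of unshared anchors. CpG islands, the unmethylated stretches found at many promoters, occurred in 8.29% of shared and 2.39% of unshared FGFR1 anchors, and in 7.82% and 2.54% of CTCF anchors. Promoters, the 1 kb before a transcription start, showed the same order, with 7.5% and 2.45% for FGFR1 and 7.03% and 2.57% for CTCF. Gene bodies differed less, with 51.7% and 43.7% for FGFR1 and 51.5% and 44.8% for CTCF, and median GC content was 42.7% against 41.4% and 42.8% against 41.7%.

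The differences in consensus matches, islands and promoters were present among anchors of like length. Among anchors under 2 kb a match lay in 2.43% of shared and 0.669% of unshared FGFR1 anchors and in 2.32% and 1.72% of CTCF anchors. Islands lay in 5.49% and 1.72% of the same FGFR1 anchors and in 5.45% and 1.93% of the CTCF anchors, and promoters in 5.04% and 1.9% and in 5.04% and 2.08%. In each of 4 length classes and for both antibodies the shared anchors had the higher percentage of all 3. Per mb of anchor, shared FGFR1 anchors held 9.73 matches and unshared ones 3.98, and CTCF anchors held 11.4 and 8.91. Anchors unique to CTCF therefore held over 2 times as many matches per mb as anchors unique to FGFR1.

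**Figure D1:**
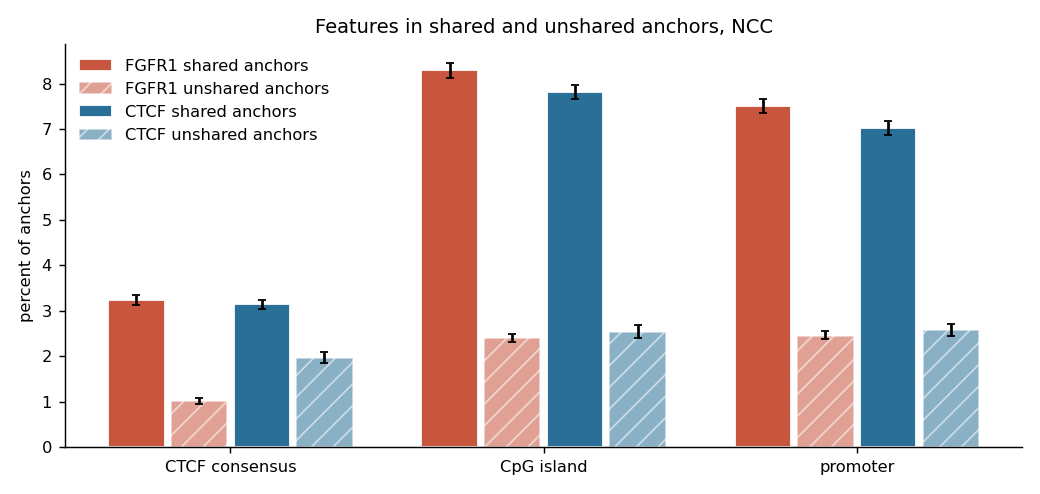
Percent of anchors (vertical axis) that held a CTCF consensus match, a CpG island or a promoter, for shared and unshared anchors of FGFR1 and CTCF HiChIP in NCC; bars start at 0 and lines give the 95% Wilson interval for counting error. Shared anchors stand above unshared ones for every feature, and the unshared CTCF anchors (1.96%) stand above the unshared FGFR1 anchors (1.01%) for the consensus.

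The strongest anchors lay at the same places in both tables. The anchor with the most ends, at chr17:39842517-39849607 and 100.9 kb from the start of Esp38, held 5730 FGFR1 and 2503 CTCF ends. Names were taken from protein-coding genes only, so genes of other types at an anchor, such as those of ribosomal RNA, are not named. This anchor was followed in both by 1 over Sfi1 and Drg1 at chr11:3183824-3191398 with 1466 and 792 ends. Next came 1 over Gm10801 and Gm10800 at chr2:98661543-98668221 with 1400 and 686. Another over Sfi1 and Drg1 lay at chr11:3191998-3200811 in the CTCF table with 612 ends. The FGFR1 anchors that overlap it held 956 ends together, of which that at chr11:3191998-3196910 held 676. The last, at chr4:81155813-81157622 and 245.2 kb from Lurap1l, had 635 and 317. None of these held a consensus match, and relative to the total of ends all were higher with CTCF. Such loci, which collect ends whatever the antibody, were left out in one of the alternative settings of the bins.

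Anchors unique to 1 antibody reached far lower counts. The strongest unique to FGFR1 lay over Gprc5c, an orphan G protein-coupled receptor known to be induced by retinoic acid, with 202 ends. Next came an anchor over Nlgn2, the adhesion protein of inhibitory synapses, and Tmem256 with 190, and anchors 33.4 kb from Fcgr1 with 163 and 135.9 kb from Cd24a with 160. Another lay over Lbhd1 and 3 other genes with 152 ends. The strongest unique to CTCF lay over Fam129b with 164 ends, and others over Gm20388 with Gse1 with 81, Atxn7l3, a subunit of the SAGA deubiquitinase, with 80 and 10.0 kb from Mex3d with 71. No consensus match lay in any of these 9 anchors.

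Consensus matches lay more densely in CTCF than in FGFR1 anchors, and in neither to a large degree. FGFR1 anchors contained 4853 of the 12245 matches, 39.6% (38.77 to 40.5%), while covering 27.2% of the autosomes. CTCF anchors contained 4722, 38.6% (37.7 to 39.43%), while covering 17.9%. Anchors with a match held 3.03% of the FGFR1 ends and 4.39% (4.364 to 4.419%) of the CTCF ends. Hi-C in NCC, without an antibody, stood above both. Its anchors contained 59.8% of the matches while covering 37.3% of the autosomes, and those with a match held 5.86% of its ends. Per kb, anchors with a match held 1.13 times the ends of anchors without one in FGFR1 HiChIP and 1.39 times in CTCF HiChIP. The same ratio was 1.19 for FGFR1 and 1.35 for CTCF in ESC and 1.33 for Hi-C in NCC, which had no antibody. With a looser search of 8 core positions, which matched 47.2% of FGFR1 and 45.8% of CTCF anchors, the order of the antibodies was turned.

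Read pairs that joined 2 anchors with consensus matches most often had motifs that pointed towards each other, with both antibodies. Among pairs 20 kb to 2 mb apart whose anchors each held matches of 1 strand, the motifs converged in 809 of 2097 FGFR1 read pairs, 38.6% (36.5 to 40.7%). With CTCF they converged in 572 of 1413, 40.5% (38 to 43.1%), so the intervals of both overlapped. Hi-C gave 34.3% (33.8 to 34.7%), below both intervals. Divergent pairs were the rarest, at 16.8% for FGFR1, 14.9% for CTCF and 18.7% for Hi-C. Among interactions with at least 2 read pairs convergence was 49.6% (46.3 to 52.8%) for FGFR1, 54.2% (50.1 to 58.3%) for CTCF and 35.9% for Hi-C, again with overlapping intervals for the antibodies. This cut was milder in Hi-C, which held 21142644 autosomal read pairs. It kept 35460 of 42198 such read pairs in Hi-C, 904 of 2097 with FGFR1 and 555 of 1413 with CTCF. The Hi-C value at this cut is therefore not a like comparison. In ESC the convergent share was 36% for FGFR1 and 36.2% for CTCF.

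The distance between the ends of a read pair differed little between the antibodies. Read pairs with both ends inside 1 anchor made up 17.4% of FGFR1 and 20.4% of CTCF read pairs, a log2 difference of -0.23. These shares add up to 1 total, and all other classes were slightly higher with FGFR1, most at 500 kb to 1 mb (5.42% against 4.96%, log2 0.13) and 1 to 5 mb (6.74% against 6.23%). Pairs of 100 to 500 kb made up 16.6% and 16.2%, and inter-chromosomal pairs 12.4% and 12.3%. Once pairs inside 1 anchor were left out, the log2 difference stayed on the FGFR1 side at 500 kb to 1 mb (0.08) and 1 to 5 mb (0.06) and turned to the CTCF side at 20 to 100 kb (-0.03), at 100 to 500 kb (-0.02) and between chromosomes (-0.03). Between shared anchors the class inside 1 anchor was turned, with 28.4% for FGFR1 and 26.7% for CTCF. In ESC the gap inside 1 anchor was wider, with a log2 difference of -0.50.

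**Figure D2:**
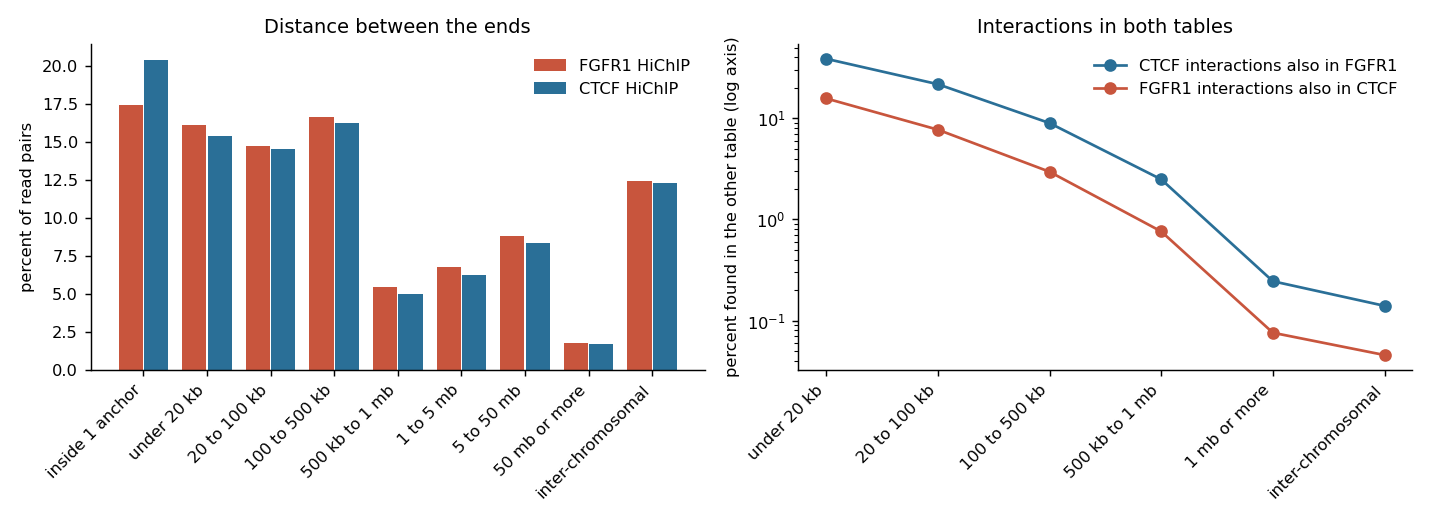
Left, percent of autosomal read pairs by the distance between their ends, for FGFR1 and CTCF HiChIP in NCC, from 0. Right, percent of interactions between different loci found in the table of the other antibody, on a log axis, by distance. The shares on the left lie close together except inside 1 anchor, and the shared percentage on the right falls from 38.7% of CTCF interactions under 20 kb to 0.14% of inter-chromosomal ones.

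Single interactions were shared far less than anchors. After anchors of both tables that overlapped had been joined into 1 locus, 81557 pairs of different loci had a read pair in both libraries. These were 3.71% of 2199059 FGFR1 interactions and 11.1% of 735779 CTCF interactions. The share rose with the support of an interaction, from 8.41% of CTCF interactions with 1 read pair to 34.1% with 2 and 51.4% with 3 or more. For FGFR1 the same classes gave 2.22%, 11.3% and 23.3%. It fell with distance, for CTCF from 38.7% under 20 kb to 21.7% at 20 to 100 kb, 8.96% at 100 to 500 kb and 2.49% at 500 kb to 1 mb. Most interactions found in only 1 table rested on a single read pair, so that their absence from the other was not detectable as a difference at this depth.

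The shared percentage went with the depth of the other table. Of the CTCF interactions of NCC, 10.0% were found with FGFR1 in ESC and 5.68% with CTCF in ESC, the shallower table. Of the FGFR1 interactions of NCC, 7.45% were found with FGFR1 in ESC, 3.77% with CTCF in ESC and 3.71% with CTCF in NCC.

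A few contacts were strong in both. Among contacts of at least 20 kb on 1 chromosome, that with the most support joined loci 21.7 kb apart on chromosome 11, 1 of them over St6galnac1, a sialyltransferase, with 33 FGFR1 and 16 CTCF read pairs. A contact inside Dab2ip, a Ras GTPase-activating protein, at 23.7 kb had 24 and 11. A contact of 55 kb between a locus 30.1 kb from Sparc, a secreted matrix protein, and Atox1, a copper chaperone, had 16 and 5 and was the one with convergent consensus matches at its ends. Other strong contacts were very long: 23 and 9 read pairs joined a locus near Ccdc167 with the anchor near Esp38 at 10098.9 kb, and 20 and 6 joined Zc3h7a with Kpna1 at 24837.2 kb. The anchor near Esp38 is the one with the most ends in both tables, which collects ends whatever the antibody. These counts were not set against the ends of the anchors they join.

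The 8 strongest contacts found with 1 antibody spanned 20.1 to 54.6 kb. With FGFR1 but no CTCF read pair stood a contact near Txn2, a mitochondrial thioredoxin, with 20, 1 between the neighbourhoods of Prl2c3 and Prl2c2 with 17, 1 inside Rara, the retinoic acid receptor alpha, with 14, and 1 from Miga2 and Dolpp1 to Ptpa with 13. With CTCF but no FGFR1 read pair stood a contact at Fam129b with 9 and contacts inside Arhgef11, inside Shroom3 and near Nkx2-3 with 8 each.

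For the bins, the number of read pairs with at least 1 end in a bin was compared, by the midpoint of the anchor. A bin was tested with at least 50 read pairs in both libraries together, and favoured an antibody when the scaled ratio was at least 2 and its 95% interval left out 1. Of 246285 bins of 10 kb, 53892 were tested, 13064 of them (24.2%) favoured FGFR1 and 7251 (13.5%) favoured CTCF. Of 24639 bins of 100 kb, 22798 were tested, 2950 (12.9%) favoured FGFR1 and 869 (3.81%) favoured CTCF. Over the 47929 tested 10 kb bins with read pairs in both libraries the median log2 ratio of FGFR1 over CTCF was -0.04, with 5th and 95th percentiles of -1.60 and 1.72, and over 22595 such 100 kb bins it was 0.08, with -0.91 and 1.57. With the tested bins at 0 in 1 library counted too, the medians were 0.11 and 0.09. Larger bins thus differed less, like the correlations above.

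The split towards FGFR1 at 10 kb turned on how the bins were counted. The minimum of 50 read pairs is reached mostly by FGFR1, the deeper library, and 64.3% of all 10 kb calls were for FGFR1. When FGFR1 was thinned to the CTCF total, 15.0% were, and when only bins with read pairs in both libraries were counted, 49.9%. In loci with anchors of both tables it was 37.2%, or 67.5% with these loci scaled to their own ends, and at a ratio of at least 4 it was 86.2%. No CTCF read pair fell in 5899 of the FGFR1-favouring 10 kb bins (45.2%), and an anchor of the CTCF table with its midpoint outside still reached into 1798 of these (30.5%). At 100 kb 77.2% of calls were for FGFR1, 72.6% after thinning, 64.9% at a ratio of at least 1.5 and 91.5% at a ratio of at least 4. The preference for FGFR1 among 100 kb bins was thus present in each of these settings, while at 10 kb neither antibody was preferred throughout.

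Many calls were local. When a bin was joined with both its neighbours, 47.4% of the FGFR1-favouring and 38.2% of the CTCF-favouring 10 kb bins still had a ratio of at least 2, and 86.1% and 91.5% kept their direction. At 100 kb 35.4% and 13.1% still reached the ratio.

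**Figure D3:**
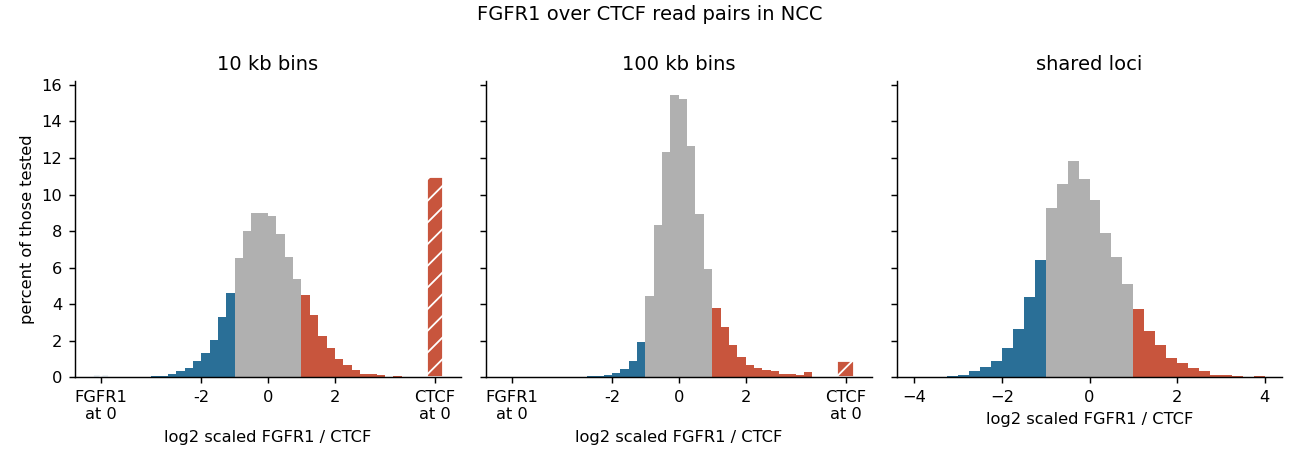
Percent of those tested (vertical axis) by the log2 of scaled FGFR1 over CTCF counts for 10 kb bins, 100 kb bins and shared loci in NCC. Red and blue mark ratios of at least 2 for FGFR1 and CTCF, grey those between, and hatched columns bins with no read pair of 1 library. The 10 kb bins with read pairs in both libraries are centred near 0 (median -0.04) beside a column of CTCF at 0, and the shared loci, scaled to the library totals, lie to the CTCF side (median -0.23).

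The 10 kb bins that favoured FGFR1 most had no CTCF read pair, since no CTCF anchor had its midpoint there. Their interval bounds do not cover the calling of anchors. The first, over Gprc5c at chr11:114850001-114860000, held 220 FGFR1 read pairs, with a lower interval bound of 19.5 for the ratio. It was followed by Bcar1, the adaptor p130Cas of Src signalling, with 203, Sipa1 with Pcnx3 with 197, a bin 7.1 kb from Ppp1r32 with 184 and Rara with 179. St6galnac1 had 172, Zfand3 169, Rfx4, a transcription factor of the neural tube, 168, Zc3h3 164 and a bin 52.7 kb from Krr1 162 (lower bound 14.3). Anchors that reached in and neighbouring bins changed this picture for some of them. CTCF anchors with midpoints outside reached into Bcar1 with 61 read pairs and into Zfand3 with 33, and over the bin with its neighbours St6galnac1 had 330 FGFR1 and 109 CTCF read pairs, a log2 ratio of 0.00. With neighbours Rfx4 stayed high, with 250 against 11 (log2 2.91), as did Ppp1r32 with 207 against 17 (2.01), Gprc5c with 290 against 35 (1.45) and Rara with 257 against 34 (1.32). The others fell under a ratio of 2 with neighbours. Besides St6galnac1 these were Zc3h3 (0.98), Sipa1 with Pcnx3 (0.61), Zfand3 (0.40), Bcar1 (0.12) and the bin near Krr1 (0.10). The Zfand3 bin also held 0 Hi-C read pairs, as did that of Tcf7l2 below.

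The 10 kb bins that favoured CTCF most had no FGFR1 anchor midpoint, but in 7 of 10 an FGFR1 anchor reached in. The first, over Rab11fip3, an effector of Rab11 in recycling endosomes, at chr17:26010001-26020000, held 112 CTCF read pairs, and FGFR1 anchors that overlapped it held 46, a log2 ratio of -2.88. The bin holds 2 of the 3 consensus matches of Rab11fip3 printed above, and in ESC it held 106 CTCF and 0 FGFR1 read pairs. No FGFR1 anchor reached a bin 19.9 kb from Eif1, the factor of start codon selection, with 97 CTCF read pairs (upper interval bound of the ratio 0.0128), Ubap2l with 80 (0.0156) or a bin 9.0 kb from Tcim with 70 (0.0179). Those into which FGFR1 anchors reached were Hip1r, an actin and clathrin adaptor, with 81 CTCF and 157 overlapping FGFR1 read pairs, and a bin 75.4 kb from Prl2c2 with 73 and 246, where the log2 ratio became 0.15. Rbfox2, a splicing regulator, had 73 and 138, Trpm5 with Tssc4 72 and 84, and Tcf7l2, an effector of Wnt signalling, 72 and 155. At Tapbp with Rgl2, 73 CTCF read pairs fell in the bin and 127 when overlapping anchors were counted, against 86 for FGFR1. With neighbours Eif1 stayed at a log2 ratio of -4.43, Tcim at -3.23 and Rab11fip3 at -2.59. The others were less negative, with -1.86 at Trpm5 with Tssc4, -1.52 at Tapbp with Rgl2 and -1.25 at Ubap2l. Tcf7l2 (-0.80), Rbfox2 (-0.57), the bin near Prl2c2 (-0.33) and Hip1r (-0.23) no longer reached a ratio of 2.

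At 100 kb the bins that favoured FGFR1 most lay far from genes and held no CTCF anchor midpoint. They were 291.1 kb from the start of Tfap2b (321 FGFR1 and 0 CTCF read pairs, lower interval bound of the ratio 28.6), 1843.6 kb from Pcdh17 (283 and 0), 190.0 kb from Adam34 (223 and 0), 292.8 kb from Cntn6 (218 and 0) and 1115.9 kb from Olfm4 (206 and 0). Hi-C read pairs in these 5 bins were between 20 and 115, against a median of 1159 over all 100 kb bins tested. In ESC the bin near Tfap2b held 116 FGFR1 and 16 CTCF read pairs, and all 5 had read pairs of both antibodies. The bins that favoured CTCF most overlapped Nell1 (6 FGFR1 and 65 CTCF read pairs, log2 -5.04), Mug1 (7 and 69, -4.90) and Ctnnd2, a neuronal catenin (13 and 71, -4.05), or lay 599.3 kb from Pom121l12 (9 and 49) and 705.2 kb from Brinp3 (11 and 51). With their neighbours these 5 had log2 ratios between -2.53 and -0.41.

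Against all bins tested, FGFR1-favouring bins were poor in genes, islands and consensus matches, and CTCF-favouring 10 kb bins were rich in them. A consensus match lay in 5.14% (4.78 to 5.54%) of FGFR1-favouring, 12.9% (12.2 to 13.7%) of CTCF-favouring and 7.95% of all 10 kb bins tested, and in 4.69% of all 10 kb bins of the autosomes. Islands lay in 11.1%, 25.1% and 17.8% of the same classes of tested bins, promoters in 10.1%, 22.5% and 16.2%, and gene bodies in 58.5%, 70.2% and 63.3%. GC content was 42.7%, 45.6% and 43.9%. Of the FGFR1-favouring 10 kb bins 45.2% had no CTCF read pair and passed the minimum through FGFR1 alone. Among bins with read pairs of both antibodies a match lay in 5.39% of FGFR1-favouring and 12.8% of CTCF-favouring ones. The share of 5.14% was low against tested bins but not against all autosomal bins. At 100 kb the FGFR1-favouring bins stood apart, with a consensus match in 20.1% against 35.3% of all tested, gene bodies in 44.1% against 65.8% and a GC content of 38.8% against 41.6%. The CTCF-favouring 100 kb bins were close to all tested, with 37.5%, 65.2% and 41.9%. The median of Hi-C read pairs moved with these classes, at 195 in FGFR1-favouring, 322 in CTCF-favouring and 244 in all 10 kb bins, and at 322.5, 774 and 1159 at 100 kb. Its part in the result was not tested.

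GC content went with the ratio over its whole range. In deciles of the 10 kb bins by GC content the median log2 ratio went from 0.31 in the lowest (30.3 to 38.2% GC) to -0.40 in the highest (50.5 to 60.4%). Over 100 kb bins it went from 0.42 to -0.25. The Spearman correlation with GC content was -0.204 over 47929 bins of 10 kb and -0.286 over 22595 bins of 100 kb with read pairs of both antibodies. Within every decile of GC content, at 10 kb and at 100 kb, bins with a consensus match had a lower median than bins without one. In the highest decile at 10 kb the medians were -0.60 with and -0.37 without a match.

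Loci that had an anchor in both tables gave a comparison free of bins without anchors. There were 107786 such loci, and 41598 of them held at least 50 ends together. Of these 4207 (10.1%) favoured FGFR1 and 7113 (17.1%) favoured CTCF, and 71.8% lay within a ratio of 2. The median log2 ratio of ends was -0.23. This direction rests on the scaling, since shared anchors hold a larger part of the CTCF ends (75.2%) than of the FGFR1 ends (59.2%). Scaled to the ends within these loci, with a factor of 0.419 in place of 0.33, 7597 loci favoured FGFR1 and 3658 favoured CTCF, and the median was 0.12. Differences between classes of loci, given below with the first scaling, do not move with it, but counts of calls do. Loci with a consensus match had a median of -0.52 and those without one of -0.21, and 28.3% of the 2470 with a match favoured CTCF against 16.4% of the others. FGFR1 was favoured at 6.52% with and 10.3% without a match. In each quintile by GC content the loci with a match were lower, from -0.25 against 0.06 in the first to -0.67 against -0.47 in the last.

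For islands and promoters the differences were smaller within quintiles and not all of 1 direction. Over all loci those with an island had a lower median than those without (-0.42 against -0.18), and likewise for promoters (-0.40 against -0.19). Within the quintile of highest GC content the medians were -0.50 with and -0.47 without an island and -0.48 with and -0.49 without a promoter. In the lowest quintile both were higher with the feature, at 0.26 against 0.05 for islands and 0.22 against 0.05 for promoters. In the second and the fourth quintile both were lower with it, at -0.23 against -0.08 and -0.39 against -0.33 for islands and at -0.18 against -0.08 and -0.39 against -0.33 for promoters. In the third the medians were -0.21 with and without an island and -0.24 with and -0.21 without a promoter.

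**Figure D4:**
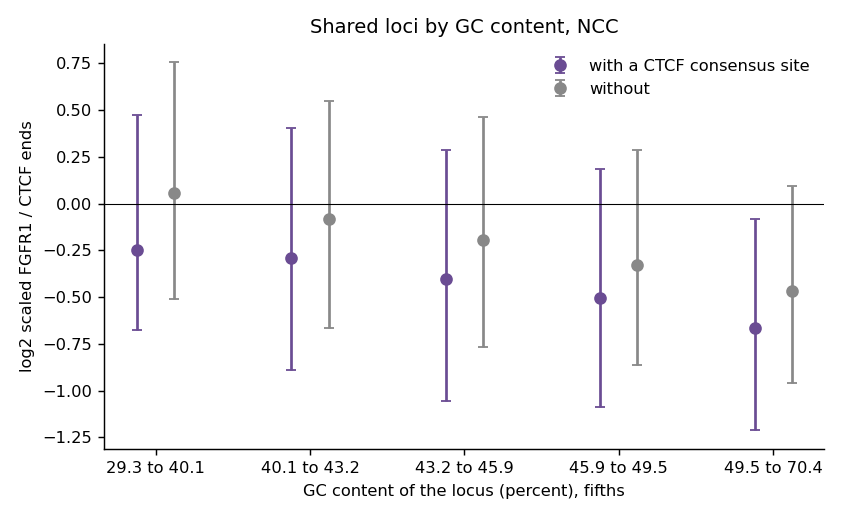
Median log2 ratio of scaled FGFR1 over CTCF ends (vertical axis) for shared loci in quintiles of GC content, with and without a CTCF consensus match; lines span the 25th to the 75th percentile of loci and are no error of the median. In each quintile the loci with a match lie lower, and both series fall with GC content, to -0.67 and -0.47.

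Single loci showed both directions. Towards FGFR1 stood Dppa2, a gene of pluripotent cells, with 129 FGFR1 and 2 CTCF ends (log2 4.41), Crk, an adaptor of tyrosine kinase signalling, with 147 and 3, Fign with 90 and 1 and Susd6 with 168 and 5. Towards CTCF stood Rapgef1, a Rap1 activator that binds Crk, with 40 and 223 (log2 -4.08), Ncs1, a neuronal calcium sensor, with 26 and 124, and Nipsnap2 with 32 and 123. These 3 had CTCF ends of 154, 138 and 104 against FGFR1 ends of 53, 37 and 33 in ESC. At Dppa2 ESC had 49 FGFR1 and 36 CTCF ends.

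Among loci with a printed consensus match, Rab11fip3 had 54 FGFR1 and 162 CTCF ends (log2 -3.18), Ran, the GTPase of nuclear transport, 16 and 66, Top1mt 31 and 106 and Nup50, a nucleoporin, 21 and 63. In ESC Rab11fip3 had 35 and 158. In the other direction Gm20388 had 119 and 3 (log2 3.71), Btla, an inhibitory receptor of lymphocytes, 81 and 3, Skap1 120 and 8, Snx9 98 and 6 and Wnt5b, a Wnt ligand, 100 and 7. In ESC Snx9 had 78 FGFR1 and 111 CTCF ends, so that the direction seen in NCC was not seen there. A consensus match was thus present at loci of both directions.

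ESC libraries were not used to choose the NCC bins and gave a weak echo of them. Of the 10 kb bins that favoured FGFR1 in NCC, 4428 could be tested in ESC, of which 27.2% favoured FGFR1 and 11.5% favoured CTCF. Over all NCC bins tested in ESC these shares were 19.9% and 12.1%. Of those that favoured CTCF in NCC, 15.8% favoured FGFR1 and 15.9% favoured CTCF in ESC. A log2 ratio above 0 in ESC was found for 59.0%, 45.7% and 52.0% of the 3 classes. At 100 kb FGFR1-favouring bins gave 21.4% and 6.94% in ESC against 11.3% and 4.3% of all, and CTCF-favouring bins 11.9% and 6.54%, more often for FGFR1 than for CTCF. Across 19087 shared loci the Pearson correlation of the log2 ratio in NCC with that in ESC was 0.125. Most of the bins called in NCC were therefore not called for the same antibody in ESC.

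Gene starts were compared by the read pairs with an end within 10 kb on each side. A count of 0 here means that no anchor midpoint of that table lay in the window. Of 20780 autosomal protein-coding genes 15239 were tested, 2222 (14.6%) favoured FGFR1 and 2492 (16.4%) favoured CTCF, and the median log2 ratio was -0.17. Neighbouring genes share windows and read pairs. Of the 10 gene lists, FGF signalling had the lowest median in this window and olfactory receptors the highest. The lowest changed with the window, to CTCF and cohesin (-0.60) at 2 kb and to Hox genes (-0.55) at 50 kb on each side. The highest changed at 2 kb, where histone genes (0.73, 10 tested) stood above olfactory receptors (0.68, 10 tested).

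Genes of FGF signalling had a median of -0.58 over 21 tested of 24, and 3 favoured FGFR1 and 7 CTCF. The list spans ligands, receptors, inhibitors and targets, and its median was 0.14 with windows of 2 kb, where 10 were tested, and -0.22 with windows of 50 kb. Among the ligands Fgf5 had 97 FGFR1 and 0 CTCF read pairs (lower interval bound of the ratio 8.52), while Fgf15 had 26 and 47 (log2 -2.45), Fgf17 65 and 52 (-1.28) and Fgf8 43 and 31 (-1.13). The receptors were not alike. Fgfr1, the gene of the precipitated protein, had 161 and 17 (log2 1.65, ratio 3.13 with interval 1.89 to 5.5), Fgfr2 35 and 38 (-1.72), Fgfr3 84 and 67 (-1.27) and Fgfr4 87 and 48 (-0.74), which was not called. The feedback inhibitors Dusp6 and Spry2 favoured CTCF with log2 ratios of -1.04 each, and Etv4, a transcription factor downstream of FGF, had 78 and 0. Their relatives were called for neither, with 49 and 21 at Spry1 (-0.38) and 87 and 43 at Etv5 (-0.58), and Spry4, with 46 and 0, was under the minimum of 50. In ESC the start of Fgfr1 had 121 and 74 (log2 -0.42).

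Genes of CTCF and cohesin had a median of 0.07 over 13 tested of 15 on autosomes, and of -0.60 with 2 kb windows. The start of Ctcf itself favoured CTCF, with 53 FGFR1 and 66 CTCF read pairs (log2 -1.91, ratio 0.265 with interval 0.181 to 0.387), and so did that of Nipbl, the cohesin loader, with 77 and 70 (-1.46). Pds5b, a cohesin regulator, with 89 and 7 (2.07), Zfp143, a zinc finger protein found at promoters and loops, with 118 and 13 (1.58) and Yy1, a structural regulator of enhancers and promoters, with 91 and 13 (1.21) favoured FGFR1. The ring subunits Rad21 (-0.81) and Smc3 (0.83) were called for neither.

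Hox genes, which pattern the body axis and respond to retinoic acid, had a median of -0.35 over 36 tested of 39, with 1 call for FGFR1 and 5 for CTCF; with windows of 2 kb 13 were tested and the median was 0.24. Hoxa13 had 25 FGFR1 and 71 CTCF read pairs (log2 -3.10), Hoxd8 62 and 54 (-1.40), Hoxa2 146 and 99 (-1.04), and Hoxd3 and Hoxd4 had the same 78 and 57 (-1.15). Hoxc9 favoured FGFR1 with 189 and 23 (1.44), and Hoxb9 with 107 and 19 (0.90) was not called. Over whole clusters the scaled ratio of FGFR1 over CTCF was 0.57 (0.497 to 0.656) in Hoxa, 0.821 (0.732 to 0.921) in Hoxb, 0.869 (0.749 to 1.01) in Hoxc and 0.704 (0.587 to 0.848) in Hoxd. In ESC the ratios were 0.591, 1.27, 1.16 and 0.975, so that Hoxa stood on the CTCF side in both cell types.

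Genes of pluripotency had a median of -0.27 over 22 tested, with 3 calls for FGFR1 and 4 for CTCF, and of 0.56 over the 6 tested with 2 kb windows. Pou5f1, the core factor of pluripotency, had 62 FGFR1 and 112 CTCF read pairs (log2 -2.45) and favoured CTCF in ESC too, with 73 and 72 (-1.11). Klf5 had 36 and 39 (-1.71), Lefty1, a Nodal antagonist, 127 and 15 (1.48) and Lin28a, an RNA-binding protein that blocks let-7 maturation, 118 and 17 (1.20). Sox2 (-0.74) and Nanog (-0.58) were not called. Neural genes had a median of -0.40 over 25 tested, with 3 calls for FGFR1 and 5 for CTCF. Stmn2, a neuronal microtubule protein, had 76 and 0, Zic1 61 and 0 and Pax7 66 and 58 (-1.41). In ESC 23 neural genes were tested, with 6 calls for FGFR1 and 2 for CTCF and a median of 0.30, the other direction.

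Genes of retinoic acid signalling had a median of -0.29 over 21 tested, and 19 of them were called for neither antibody. Crabp2, which carries retinoic acid to the nucleus, had 72 FGFR1 and 0 CTCF read pairs (lower interval bound of the ratio 6.28), and Stra8, a target of retinoic acid in germ cells, had 46 and 115 (log2 -2.92). Crabp1 had 55 and 35 (-0.95), Aldh1a3, which makes retinoic acid, 43 and 10 (0.51) and Cyp26a1, which degrades it, 119 and 42 (-0.10). The start of Rara had 186 and 73 (-0.25), although a 10 kb bin further along the gene held FGFR1 read pairs only.

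The other lists lay near or above all genes. Imprinted genes had a median of 0.01 over 19 tested, with Rasgrf1 (54 FGFR1 and 4 CTCF read pairs, log2 2.16) and Ndn (47 and 5, 1.63) called for FGFR1, Cdkn1c (25 and 49, -2.57) called for CTCF and Zim1 (78 and 49, -0.93) for neither. Ribosomal protein genes had a median of -0.15 over 74 tested, 0.02 once the median of all genes was set to 0, with 4 calls for FGFR1 and 13 for CTCF. Rpl28 had 90 and 0, Rpl19 89 and 0, Rps24 27 and 57 (-2.68) and Rpl37 26 and 32 (-1.90). Histone genes, which lie in dense clusters, had a median of 0.06 over 61 tested, -0.16 with windows of 50 kb. They had 14 calls for FGFR1 and 6 for CTCF, where 14.6% and 16.4% of all genes were called. The neighbours Hist1h2ba and Hist1h2aa shared the same 56 and 0 read pairs, and Hist3h2ba and Hist3h2a the same 30 and 40 (-2.01). Hist2h2ab, Hist2h2ac and Hist2h2be shared the same 57 and 8, so the histone calls are not separate windows. In ESC 59 histone starts were tested, with 1 call for FGFR1 and 13 for CTCF and a median of -0.33, the other direction.

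Olfactory receptor genes, clustered and silent outside the nose, favoured FGFR1 at 137 and CTCF at 20 of 342 starts tested, against 14.6% and 16.4% of all genes. Their median was 0.72, 0.47 with windows of 50 kb, and 52 had no CTCF read pair. Only 342 of 1127 on autosomes were tested, and a start with few CTCF read pairs passed the minimum through FGFR1, so the count does not stand for the family. Olfr992 had 67 FGFR1 and 0 CTCF read pairs and Olfr993 60 and 0, while Olfr1249 had 16 and 40 (log2 -2.92) and Olfr952 25 and 30 (-1.86). In ESC 217 starts were tested, with 57 for FGFR1 and 18 for CTCF and a median of 0.30.

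**Figure D5:**
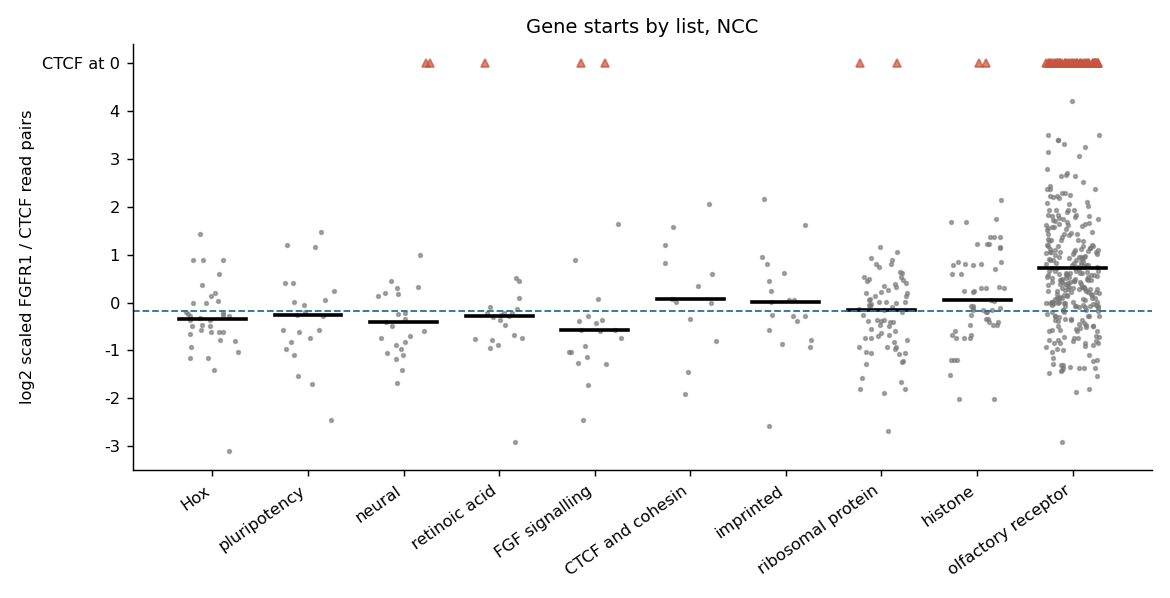
Log2 ratio of scaled FGFR1 over CTCF read pairs (vertical axis) within 10 kb of each gene start tested in NCC, by gene list. Points are genes, black lines list medians, the dashed line the median of all protein-coding genes (-0.17), and triangles at the top genes with no CTCF read pair. Most lists spread on both sides of the dashed line, and olfactory receptor genes lie above it (median 0.72).

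Whole chromosomes differed little. The log2 ratio of ends was highest on chromosome 3 (0.10, with 40.5% GC and 6.27 genes per mb) and chromosome 1 (0.09), and lowest on chromosome 11 (-0.13, with 43.8% GC and 13.4 genes per mb) and chromosome 19 (-0.10). In ESC chromosome 3 (0.07) was on the FGFR1 and chromosome 11 (-0.11) on the CTCF side as well, while chromosome 19 was at -0.01.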

How the data were processed

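The authors prepared Hi-C and HiChIP from fixed cells in 2 biological replicates, removed duplicates and aligned with HiC-Pro (mm10, per the labels) and called anchors with hichipper in each sample. The deposited tables hold whole-number read pair counts per pair of anchors, merged over the replicates, with no normalization. The build was checked through the anchor edges, which all lay at GATC sites of GRCm38.

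Autosomal read pairs were summed per anchor, per bin (at least 50 read pairs in both libraries together), per joined locus and within 10 kb of starts in GENCODE M21, after FGFR1 counts had been multiplied by 0.33. Intervals are Wilson (shares) and Clopper-Pearson (ratios) at 95%, and with a count of 0 the bound of the interval is given in place of a ratio. With 1 pooled library per antibody no p-values were computed. Depth is that of 3177422 FGFR1 and 1049415 CTCF read pairs. CpG islands were found in the genome sequence (minimum 400 bp, 50% GC, observed over expected CpG of 0.6). The CTCF consensus of 12 positions was searched on both strands. Named were the 10 bins of 10 kb and the 5 of 100 kb per direction with the interval bound farthest from 1, the 5 strongest anchors per class and the 2 highest and 2 lowest tested genes per list. Kinases and binding proteins whose symbols begin like those of ribosomal proteins were left out of that list. Some of the items named by this rule are not reported here. Other genes, and all joined loci and interactions, were chosen after their values were seen. The comparison, the members and the lists were chosen with earlier results of these data known. Overlaps with reference tables, joined loci, interactions and neighbouring bins were added after the data were examined. Alternatives were other minimums, ratios, overlaps, window sizes, thinning, scaling and filters on read pairs. The calling of bins was tested on simulated data that held counting error only. They held no differences between replicates and no counts of 0 from separate calling of anchors, so the simulation does not bear on these. Python 3.11.15, numpy 2.4.6, pandas 2.3.3, scipy 1.17.1 and matplotlib 3.10.9 were used.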

Additional observations from a re-analysis of the deposited data

Results flagged for a closer look

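Of 39 genes of the naming rule, 35 were called for an antibody in NCC and 11 in ESC. The rule took the extreme NCC ratios of each list, so the number of NCC calls follows from it and fewer calls in ESC are no result. Of all protein-coding gene starts, 2222 of 15239 tested favoured FGFR1 and 2492 favoured CTCF in NCC. In ESC 2242 of 14516 favoured FGFR1 and 1759 favoured CTCF. For 7 both calls were the same, and 2 genes were called for opposite antibodies, with CTCF in NCC and FGFR1 in ESC. Klf5 had a log2 ratio of -1.71 in NCC (36 FGFR1 and 39 CTCF read pairs) and 1.53 in ESC (139 and 22). Pax7 had -1.41 in NCC (66 and 58) and 1.64 in ESC (116 and 17). The counting intervals of each pair did not overlap, but both genes were named for their NCC ratio. The difference between the cell types was not tested, since each value rests on 1 pooled library per antibody.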

How the results depend on the processing

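No paired analysis was possible because both replicates of each antibody were merged into 1 column of counts, and for the same reason no replicate could be left out. Of 99 values of the main comparisons under an alternative, 47 stayed near their first value. The counts of 10 kb bins for FGFR1 (13064) and CTCF (7251) became 441 and 2493 after thinning, 869 and 694 for interactions of at least 2 read pairs, 7122 and 2960 for ends in shared anchors, 45685 and 20770 at a minimum of 20 read pairs, 1136 and 882 at 100, and 7371 and 1185 at a ratio of at least 4. With an anchor counted in every bin it overlaps FGFR1 had 22543. In settings chosen after seeing the data, 7165 FGFR1 bins had read pairs in both libraries, 6188 and 2768 still reached the ratio with both neighbours, and 4207 joined loci favoured FGFR1, with 7597 for FGFR1 and 3658 for CTCF when scaled to the ends in these loci. At 100 kb (2950 and 869) the counts became 813 and 251 for shared anchors, 5440 and 2936 at a ratio of 1.5, 819 and 76 at 4, and 1044 and 114 with both neighbours. Shared FGFR1 and CTCF anchors became 37.72% and 58.04% with an overlap of 50 percent (42.71% and 64.24% of ends), and 45.52% and 69.69% for anchors with at least 5 ends (56.1% and 75.79%). Ends in shared anchors were 59.29% and 75.05% after thinning, 58.05% and 74.2% without pairs inside 1 anchor, and 48.3% and 76.98% for at least 2 read pairs. The share of anchors with a consensus match, CTCF over FGFR1, was 1.48 as matches per kb, and that of ends 1.216 per kb of anchor. With 8 core positions both turned, to 0.9713 and 0.9741. Convergent shares rose to 49.6% and 54.2% for at least 2 read pairs. Gene starts for FGFR1 and CTCF (2222 and 2492) became 727 and 989 with 2 kb windows and 1250 and 965 with 50 kb. Setting the median of all genes (-0.17) to 0 shifted every list by that amount, and imprinted genes had under 6 tested at 2 kb. Between shared anchors the log2 difference inside 1 anchor turned to 0.09, and those of other classes to -0.045 (under 20 kb and 100 to 500 kb), -0.038 (20 to 100 kb), -0.023 (1 to 5 mb) and -0.04 (inter-chromosomal). The causes of these changes were not tested, except that thinning and higher minimums leave fewer bins. Depth limits single interactions, since over 80% rest on 1 read pair.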
